A study of Mus musculus with 6 samples.

Results

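The 48 genes described here act in mitosis: G2/M cyclins and the kinases they work with, chromosome condensation and passenger proteins, kinetochore and checkpoint proteins, spindle motors and the proteins of cytokinesis. They were chosen by a list of names that uses no measured value, though earlier results of these data were known when it was drawn up. Of the 48 genes, 48 had a row in the expression table of 12153 genes. RNA-Seq was performed on regulatory T cells (Tregs) from B16.F10 melanomas, a transplanted mouse skin tumor, 15 days after inoculation, with 3 libraries per genotype. Control mice carried a floxed *Nr3c1*, the gene for the glucocorticoid receptor (GR), and no Cre was labelled for them. *Nr3c1*-Foxp3Cre mice carried the same floxed *Nr3c1* and a Foxp3-YFP/Cre allele, so that Cre is made where the *Foxp3* promoter is active. Both groups therefore share the floxed allele, the tumor line and the day. The sample labels describe a sort on CD45, CD4 and CD25, whereas the study's methods describe one on CD45.2, CD4 and Foxp3-YFP after removal of other immune lineages. The labels give control mice no YFP allele, so a difference in sorting and the genotype cannot be told apart. By these labels, an effect of the Foxp3-YFP/Cre allele itself and the loss of GR cannot be told apart either. The labels do not tie libraries to separate animals, and the p-values measure only the spread between these libraries.

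Cells that divide make these transcripts in waves, late in S phase and through G2 and M, and cells that rest keep them low. Cyclin B with CDK1 drives entry into mitosis, the kinetochore ties chromosomes to the spindle, the checkpoint holds anaphase until all are attached, and the anaphase-promoting complex (APC/C) then ends the division. In tumors, many Tregs are activated and cycling, so the RNA level of the group is often read as a measure of how many cells divide. In a bulk library, fewer dividing cells and less RNA per dividing cell cannot be told apart.

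A pair of DNA letter patterns recurs near the start sites of such genes: the CHR, TTTGAA, which the MuvB complex reads, and the CCAAT box, which NF-Y reads. They are shown because they are shared by genes that the choice of members did not pick by sequence. Promoter windows from 250 bases before to 50 bases after the RefSeq start (GRCm38.p6) were found for 41 of the 48 genes, as 43 windows. A CHR on either strand (TTTGAA or TTCAAA) was present in 74.4% of these windows, against 17.9% of all 32851 windows and 12.4% of the 11963 windows of genes in the table. A CCAAT box on either strand (CCAAT or ATTGG) was present in 74.4% of them, against 37.4% of all windows and 37.8% of those of genes in the table. Both patterns occurred together in 65.1% of the windows, against 6.95% of all windows and 5.11% of those of genes in the table. At least 2 CCAAT boxes were present in 46.5%, against 11.7% of all windows and 14.3% of those of genes in the table. Matches of the patterns were counted separately and could share bases, and a match is a description of the sequence only. The 150 bases before the start are printed for the 3 genes with a single window, a CHR and at least 2 CCAAT boxes in those bases, and at most 30 bases inside the annotated gene. They are given in the direction of transcription, all from the minus strand, with both patterns in capitals.
*Cdk1*, chr10:69352913-69353062: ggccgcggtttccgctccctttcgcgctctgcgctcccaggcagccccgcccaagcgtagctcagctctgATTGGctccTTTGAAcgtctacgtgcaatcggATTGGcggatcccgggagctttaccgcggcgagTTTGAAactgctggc
*Cdc20*, chr4:118437344-118437493: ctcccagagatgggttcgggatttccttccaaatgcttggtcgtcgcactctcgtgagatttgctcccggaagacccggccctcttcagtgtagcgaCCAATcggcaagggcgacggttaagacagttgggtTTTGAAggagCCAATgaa
*Top2a*, chr11:99024190-99024339: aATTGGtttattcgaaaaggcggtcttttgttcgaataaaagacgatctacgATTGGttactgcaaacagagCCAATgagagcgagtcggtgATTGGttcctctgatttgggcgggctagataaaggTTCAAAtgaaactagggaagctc
*Cdk1* holds 2 CHR and 2 CCAAT boxes in these bases, *Cdc20* 1 and 2, and *Top2a* 1 and 4. The last 26 bases printed for *Cdk1* and the last 9 for *Cdc20* lie inside the gene as GENCODE annotates it. They hold the last CHR of *Cdk1* and the last CCAAT box of *Cdc20*.

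Expression is given as log2 of CPM, the read count of a gene scaled to a common library total, after quantile normalization by the authors, and differences are log2 fold changes of *Nr3c1*-Foxp3Cre over control libraries. Read depth is unknown, and the number of libraries limits the precision. *Nr3c1* itself was 7.15, 7.59 and 6.88 in control libraries 1, 2 and 3 and 6.14, 5.45 and 5.90 in *Nr3c1*-Foxp3Cre libraries 1, 2 and 3, and its difference of -1.38 (SE 0.21) had an adjusted p of 0.120 in limma. *Tsc22d3*, a gene that GR induces, differed by -1.56 (SE 0.16; limma, adjusted p = 0.0342), and both genes separated the groups without overlap. All 12 Treg markers were measured, with *Cd4* between 8.69 and 9.32 and *Il2ra*, which encodes CD25, between 8.20 and 8.75, but *Foxp3* only between 3.39 and 4.47. All 9 melanoma markers were measured as well, and *Dct* reached 10.61 to 12.22.

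The mitotic genes did not differ detectably between the genotypes. None of the 48 had an adjusted p under 0.05 in limma, where 7 genes, or 0.0576% of all genes, did, and each of the 48 had an adjusted p of 1. None had an unadjusted p under 0.05 either, against 3.26% of all genes, and the lowest among them was 0.155, for *Bub1*. For none of the 48 did the values of the groups separate, against 7.41% of all genes. The median difference was -0.0745, with a range from -0.28 for the kinase *Ttk* to 0.23 for the spindle protein *Hmmr*, beside a median of -0.00145 over all genes. There were 13 genes higher and 35 lower in *Nr3c1*-Foxp3Cre Tregs, so that 72.9% were lower, against 50.5% of all genes. These genes tend to move together from library to library, so that their directions are not independent of one another.

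The intervals bound how large a difference could be. The 95% interval lay within a 2-fold change in either direction for 48 of 48 genes, against 80.6% of all genes and 98.8% of the 5904 genes with a mean of at least 5 log2 CPM. It lay within 0.5 log2 units, a 1.41-fold change, for 45 of 48, or 93.8%, against 80.4% of those 5904 genes. The lowest bound was -0.78, for *Ttk*, and the highest was 0.63, for *Hmmr*. The SD within groups, pooled over both, had a median of 0.135 log2 units over the mitotic genes and 0.152 over the 5904 genes. The difference was smaller than this SD for 38 of the 48 genes, or 79.2%, against 79.0% of the 5904.

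**Figure D1:**
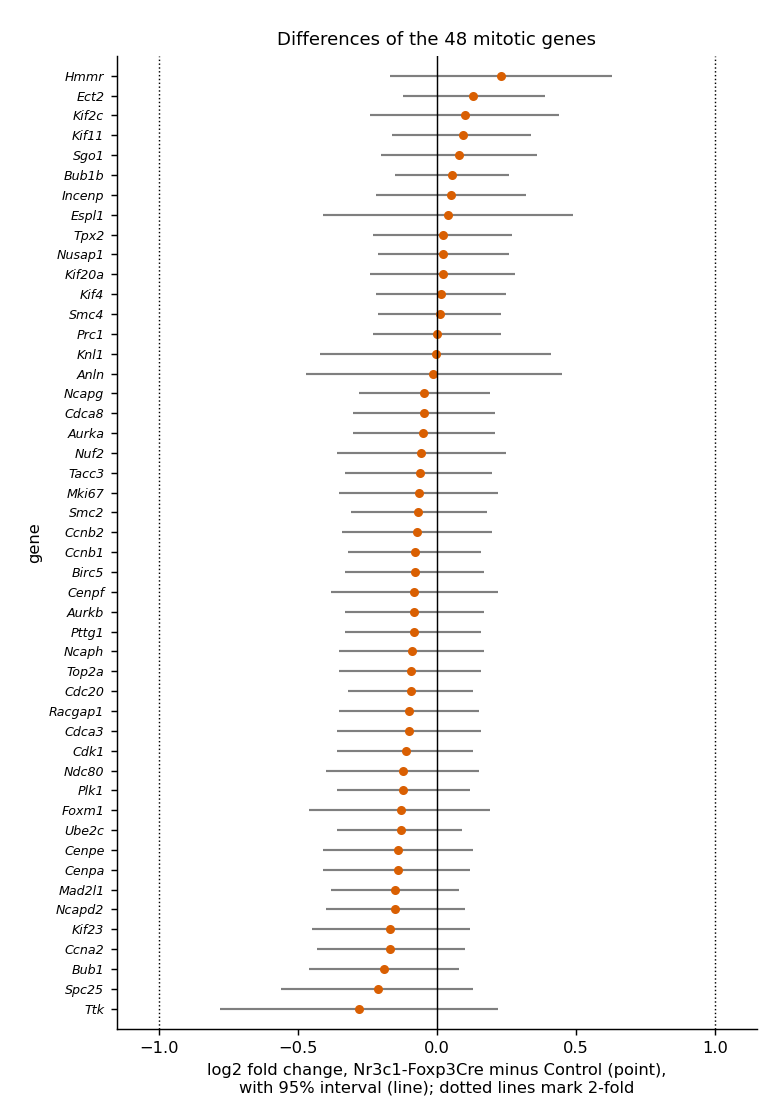
The difference between genotypes for each of the 48 genes (log2 fold change, *Nr3c1*-Foxp3Cre minus control) with its 95% interval from limma, ordered by the difference. Every interval crosses 0 and lies inside a 2-fold change, from *Ttk* at -0.28 to *Hmmr* at 0.23.

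The cyclins, CDK1 and the mitotic kinases were all on the lower side. All 9 had a negative difference, with a median of -0.111, and none passed the test. The difference was smaller than the SD within groups for 6 of the 9, and larger for *Bub1*, *Ccna2* and *Plk1*. *Ccnb1*, the main mitotic cyclin, was at 8.43, 8.16 and 8.43 log2 CPM in control libraries 1 to 3 and at 8.16, 8.27 and 8.36 in *Nr3c1*-Foxp3Cre libraries 1 to 3. The difference was -0.0778 (SE 0.11), with an interval from -0.32 to 0.16. *Ccnb2*, a second B-type cyclin, was at 8.01, 7.87 and 8.16 against 7.79, 7.89 and 8.14. Its groups spanned nearly the same range, and the difference was -0.0712 (SE 0.12). *Ccna2*, the cyclin of S phase and G2, was at 7.42, 7.49 and 7.70 in control and 7.52, 7.21 and 7.38 in *Nr3c1*-Foxp3Cre libraries, a difference of -0.17 (SE 0.12). Control library 3 alone lay above all 3 *Nr3c1*-Foxp3Cre libraries.

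*Cdk1*, the kinase that these cyclins activate, was at 7.30, 6.98 and 7.25 in control and at 7.03, 7.07 and 7.10 in *Nr3c1*-Foxp3Cre libraries. The 3 *Nr3c1*-Foxp3Cre libraries lay close together and between the controls, and the difference was -0.11 (SE 0.11). *Plk1*, a kinase of centrosomes and the spindle, was at 7.52, 7.37 and 7.59 against 7.32, 7.29 and 7.51 (difference -0.12, SE 0.105). *Aurkb*, the kinase of the chromosome passenger complex, was at 7.51, 7.27 and 7.57 against 7.30, 7.31 and 7.50 (difference -0.0834, SE 0.11). In both, control library 2 lay below *Nr3c1*-Foxp3Cre library 3, so that the groups overlapped. *Bub1*, a checkpoint kinase at the kinetochore, was at 6.61, 6.31 and 6.55 in control and 6.23, 6.24 and 6.44 in *Nr3c1*-Foxp3Cre libraries, with a difference of -0.19 (SE 0.12) and an interval from -0.46 to 0.08. *Ttk*, which encodes the checkpoint kinase MPS1, had the most negative difference, at 5.27, 4.74 and 5.27 against 4.78, 4.46 and 5.21. Its values overlapped, the SE was 0.22, and it had the largest spread of the 48 genes, with a range of 0.814 log2 units over the 6 libraries.

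*Mki67* and *Foxm1* stand for proliferation as a whole, since *Mki67* encodes the marker Ki-67 and FOXM1 is a transcription factor of G2/M genes. *Mki67* was at 7.51, 7.59 and 7.39 in control and at 7.48, 7.19 and 7.63 in *Nr3c1*-Foxp3Cre libraries. The 3 *Nr3c1*-Foxp3Cre values took in the whole range of the controls, and the difference was -0.0638 (SE 0.13), with an interval from -0.35 to 0.22. *Foxm1* was at 5.91, 5.68 and 5.95 against 5.95, 5.52 and 5.66, a difference of -0.13 (SE 0.145).

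**Figure D2:**
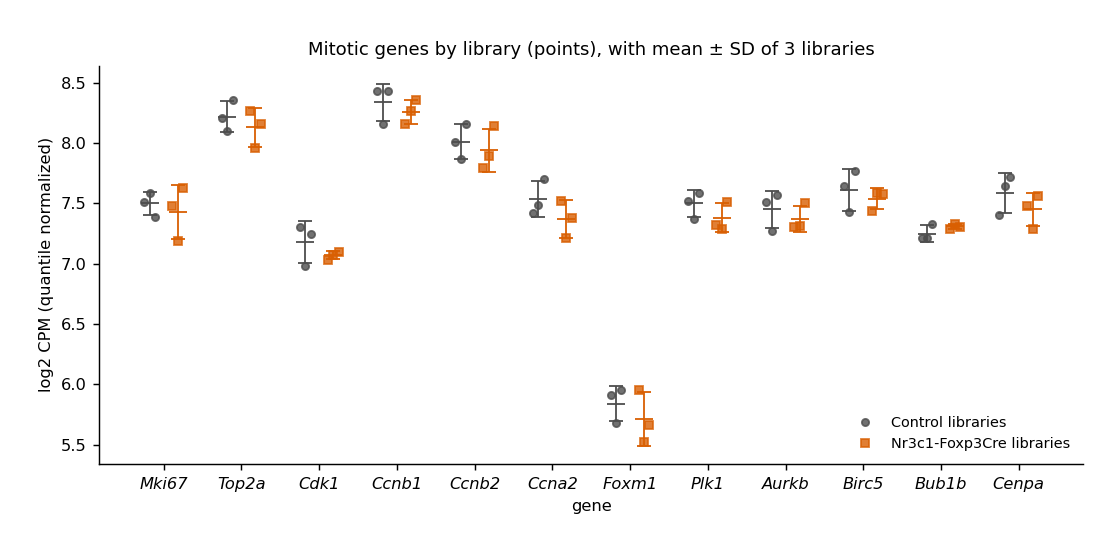
Level (log2 CPM, quantile normalized) of the 12 mitotic genes named by role, with 1 point per library and bars at the mean ± SD of 3 libraries, in gray for control and orange for *Nr3c1*-Foxp3Cre. In each gene the points of the genotypes overlap.

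Among 9 genes of the chromosome passenger complex, condensin and topoisomerase, 2 were higher and 7 lower, with a median of -0.0662 and differences from -0.15 to 0.05. *Birc5*, which encodes the passenger protein survivin, was at 7.64, 7.43 and 7.77 in control and at 7.44, 7.59 and 7.58 in *Nr3c1*-Foxp3Cre libraries, a difference of -0.0779 (SE 0.11). *Top2a*, which encodes the enzyme that untangles sister chromatids and whose promoter is printed above, was at 8.21, 8.10 and 8.36 against 8.27, 7.96 and 8.16 (difference -0.0929, SE 0.11). In both genes control library 3 was the highest of 6. *Smc4*, a core subunit of condensin, differed by 0.0109 (SE 0.10).

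Of the 8 centromere and kinetochore genes, 1 was higher and 7 were lower, with a median of -0.102. *Cenpa*, the histone H3 variant that marks centromeres, was at 7.40, 7.64 and 7.72 in control and 7.48, 7.29 and 7.56 in *Nr3c1*-Foxp3Cre libraries, a difference of -0.14 (SE 0.12). *Spc25*, a subunit of the NDC80 complex that binds microtubules, was at 6.83, 6.40 and 6.62 against 6.14, 6.63 and 6.45. One *Nr3c1*-Foxp3Cre library lay below all controls and another above the middle one, and the difference was -0.21 (SE 0.15). The gene on the higher side was *Sgo1*, which encodes shugoshin, the protector of centromere cohesion, at 5.55, 5.37 and 5.63 against 5.56, 5.55 and 5.69 (difference 0.0801, SE 0.12).

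The 7 checkpoint and anaphase genes had a median of -0.0936, with 2 higher and 5 lower. *Bub1b*, which encodes the checkpoint protein BUBR1, varied least of all 48 genes, with a range of 0.126 log2 units over 6 libraries. Its values were 7.21, 7.21 and 7.33 in control and 7.29, 7.33 and 7.30 in *Nr3c1*-Foxp3Cre libraries, a difference of 0.0554 (SE 0.0901) with an interval from -0.15 to 0.26. *Cdc20*, which encodes the APC/C activator that ends mitosis, differed by -0.0936 (SE 0.10).

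The 10 spindle motor and assembly genes ran the other way in count, with 7 higher and 3 lower and a median of 0.0208, and none passed the test. The count includes differences far below their SE, at 0.0136 for *Kif4*, 0.0208 for *Kif20a*, 0.0209 for *Nusap1* and 0.0211 for *Tpx2*. On the lower side *Prc1* was at -0.000925. *Hmmr*, which encodes a spindle pole protein and hyaluronan receptor, had the largest positive difference, at 6.15, 5.94 and 6.58 in control and 6.40, 6.25 and 6.70 in *Nr3c1*-Foxp3Cre libraries. Control library 3 lay above 2 of the *Nr3c1*-Foxp3Cre libraries, and the difference of 0.23 (SE 0.18) had an interval from -0.17 to 0.63. *Kif2c*, a kinesin that takes microtubules apart, was at 6.30, 6.35 and 6.76 against 6.48, 6.44 and 6.79 (difference 0.10, SE 0.15). *Kif11*, the motor that pushes spindle poles apart, was at 7.09, 7.09 and 7.29 against 7.25, 7.11 and 7.39 (difference 0.0925, SE 0.11). In these 3 genes the third library was the highest of each genotype. *Kif23*, a kinesin of the central spindle, was on the lower side, at 5.98, 6.05 and 6.16 against 6.07, 5.71 and 5.92 (difference -0.17, SE 0.13).

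The 3 cytokinesis genes had 1 higher and 2 lower, with a median of -0.0129. *Ect2*, which encodes the activator of RhoA at the cleavage furrow, was at 5.82, 5.76 and 6.01 in control and at 6.04, 5.98 and 5.97 in *Nr3c1*-Foxp3Cre libraries. The lowest *Nr3c1*-Foxp3Cre value lay below the highest control value, and the difference was 0.13 (SE 0.11) with an interval from -0.12 to 0.39.

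**Figure D3:**
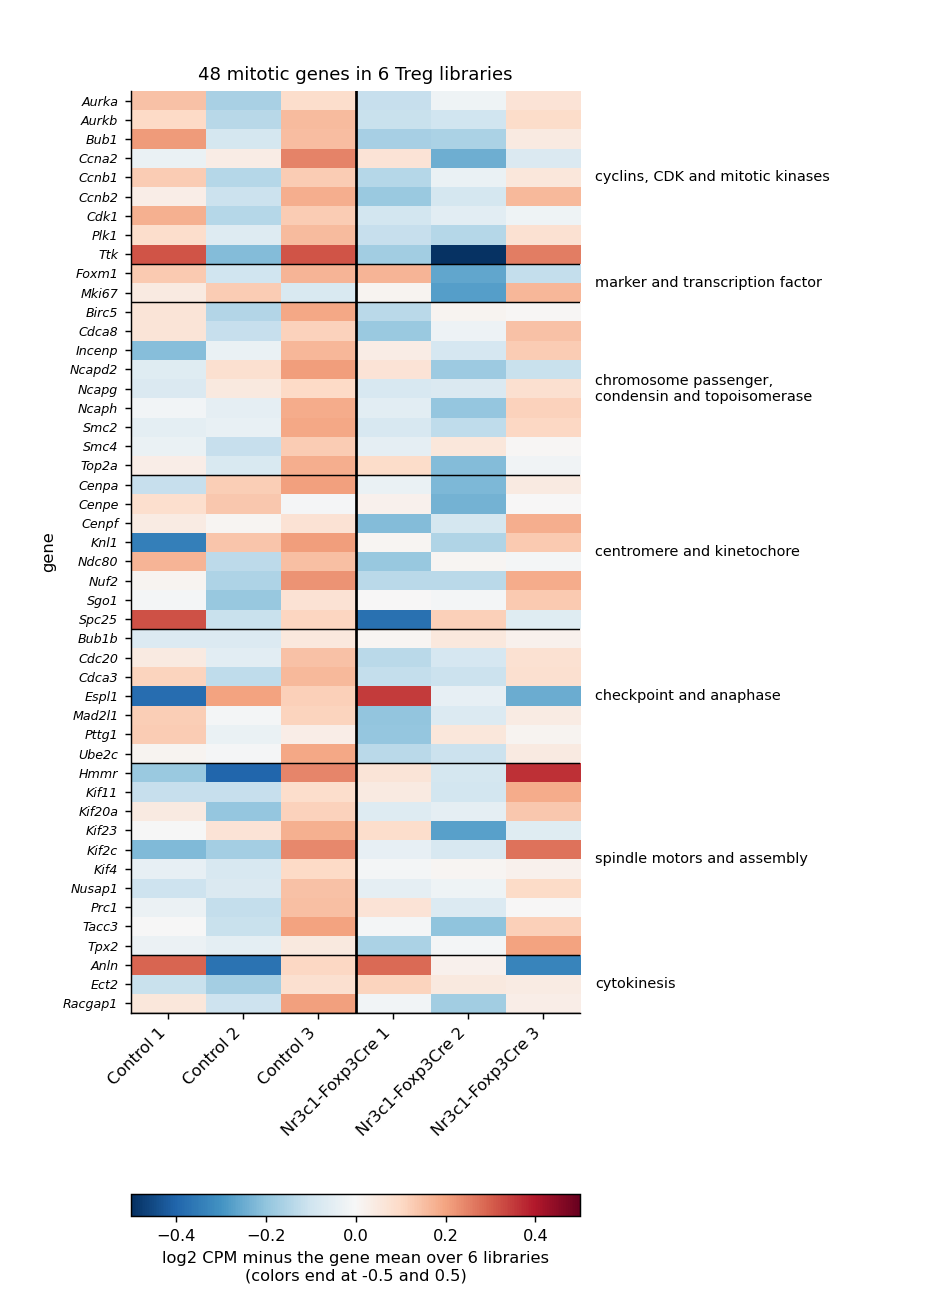
Level of each of the 48 genes in each library, as log2 CPM minus the gene's mean over 6 libraries, in rows grouped by role, with control libraries left of the line. The column of control library 3 is mostly red and those of control library 2 and *Nr3c1*-Foxp3Cre libraries 1 and 2 mostly blue.

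The larger pattern among these genes was between libraries of the same genotype. The mean over the 48 genes was 6.88, 6.79 and 7.0 log2 CPM in control libraries 1, 2 and 3 and 6.81, 6.76 and 6.92 in *Nr3c1*-Foxp3Cre libraries 1, 2 and 3. The groups overlapped, at 6.89 ± 0.11 and 6.83 ± 0.0805 (SD, n = 3 each), and their difference of -0.056 was smaller than either SD. On the linear scale the 48 genes summed to 6678, 6240 and 7270 CPM in control and 6323, 6169 and 6887 CPM in *Nr3c1*-Foxp3Cre libraries, with means of 6729 ± 517 and 6460 ± 378 (SD, n = 3 each). The *Nr3c1*-Foxp3Cre mean was 0.96 times the control mean, and the highest library was 1.18 times the lowest. The genes together took 0.617% to 0.727% of the total CPM of a library.

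Control library 3 was the highest of the 6 in 27 of the 48 genes, where it was so in 10.3% of all genes, and it was the lowest in none, against 9.97%. *Nr3c1*-Foxp3Cre library 3 was the highest in 9 genes, or 18.8%, against 18.2% of all genes, and the lowest in none, against 12.3%. The lowest value fell in control library 2 for 15 genes, in *Nr3c1*-Foxp3Cre library 2 for 14, in *Nr3c1*-Foxp3Cre library 1 for 13 and in control library 1 for 6. These were 31.2%, 29.2%, 27.1% and 12.5% of the set, against 18.2%, 19.6%, 18.7% and 21.2% of all genes. Between control libraries 3 and 2, 45 of 48 genes were higher in library 3, by a median of 0.23 log2 units, while 50.1% of all genes were higher. The 3 exceptions, named after their values were seen, were *Mki67*, *Cenpe* and *Espl1*. Between *Nr3c1*-Foxp3Cre libraries 3 and 2, 39 of 48 were higher in library 3, by a median of 0.178, against 54.6% of all genes. Without control library 3, 21 genes in place of 13 were higher in *Nr3c1*-Foxp3Cre Tregs and the median difference was -0.0161, and *Hmmr* was then the 1 gene with an unadjusted p under 0.05 (difference 0.40; limma, adjusted p = 1), against 2.39% of all genes. The difference of *Hmmr* was 0.0834 without control library 2 and 0.104 without *Nr3c1*-Foxp3Cre library 3. Without control library 2, the groups separated for 12 of the 48 genes, against 20.0% of all genes.

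RNA of other cells moved between the same libraries. The 9 melanoma markers summed to 9701, 3606 and 7276 CPM in control and 6536, 10100 and 3976 CPM in *Nr3c1*-Foxp3Cre libraries. The 2 libraries with the least melanoma marker RNA, control 2 and *Nr3c1*-Foxp3Cre 3, had mitotic sums of 6240 and 6887 CPM, and the 2 with the most, *Nr3c1*-Foxp3Cre 2 and control 1, had 6169 and 6678 CPM. When the mean of those markers entered the fit beside genotype, the median difference of the mitotic genes was -0.0722, 15 were higher (49.6% of all genes), and none had an unadjusted p under 0.05 (5.36% of all genes). All 5 fibroblast markers were lower in *Nr3c1*-Foxp3Cre libraries, at 77.55 to 167.1 CPM in sum against 186.7 to 460.0 CPM. Of these 5, 3 had an unadjusted p under 0.05, against 3.26% of all genes. All 11 macrophage and monocyte markers were lower too, at 280.4 to 560.2 CPM against 393.2 to 578.6 CPM, and none had an unadjusted p under 0.05. Of 6 CD8 T and NK cell markers 2 had a value, and *Cd8a*, *Ncr1*, *Klrb1c* and *Klrd1* had none. Of the 2, *Gzmk*, a granzyme gene, was at 0.58, 0.73 and 1.02 log2 CPM in control and -0.49, -0.89 and -1.05 in *Nr3c1*-Foxp3Cre libraries, a difference of -1.58 (SE 0.44; limma, adjusted p = 1), and the groups did not overlap. These *Gzmk* values are low, near the authors' filter for low counts. The other marker, *Cd8b1*, differed by -0.0767 (SE 0.285), and its groups overlapped. Of 4 dendritic cell markers 3 had a value, and *Itgax* had none. The sum over the 12 Treg markers was 5082, 7015 and 5959 CPM in control and 5865, 5070 and 5881 CPM in *Nr3c1*-Foxp3Cre libraries. Among them the chemokine receptor gene *Ccr8* differed by -0.53 (SE 0.14; limma, adjusted p = 1), without overlap between the groups. *Gzmk* and *Ccr8* were the 2 genes of their lists with an unadjusted p under 0.05. They were 1 of 2 CD8 T and NK cell markers with a value and 1 of 12 Treg markers, against 3.26% of all genes. In these 2 lists the groups separated for no other gene, against 7.41% of all genes. The part of fibroblast, macrophage, CD8 T and NK cell and Treg content in the mitotic values was not tested. How much of the mitotic RNA came from melanoma cells was not tested either, and the fit with the melanoma marker mean does not give it.

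**Figure D4:**
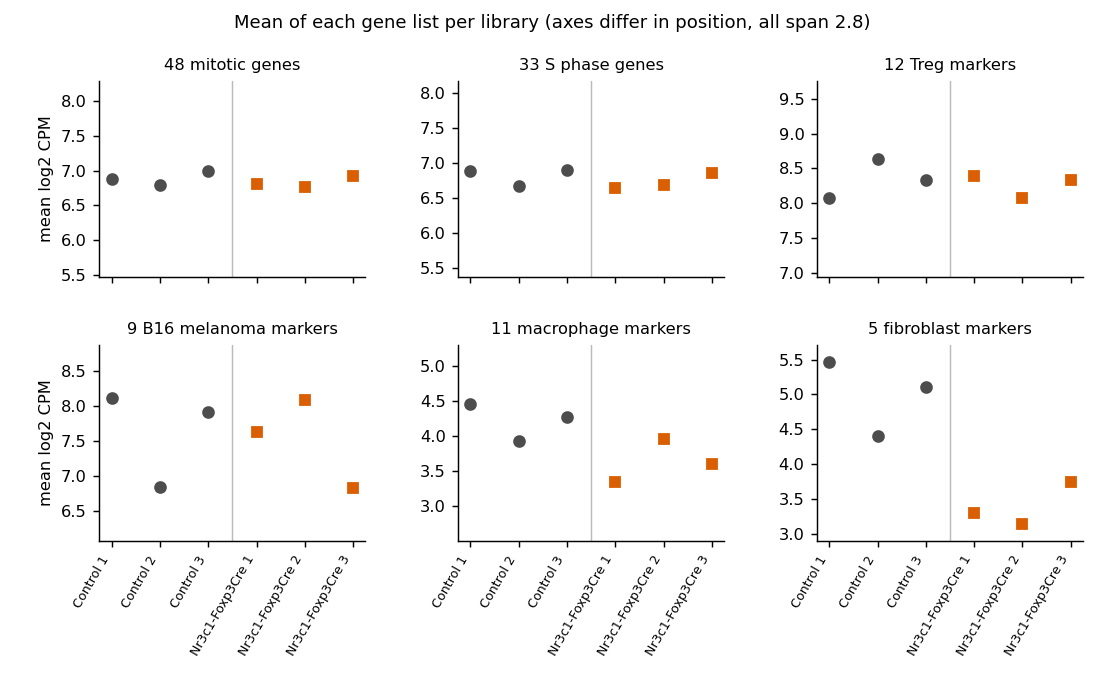
Mean log2 CPM of 6 gene lists (48 mitotic, 33 S phase, 12 Treg, 9 melanoma, 11 macrophage and 5 fibroblast genes) in each library, with gray circles for control and orange squares for *Nr3c1*-Foxp3Cre libraries. The panels start at different levels and have the same span. The mitotic means stay between 6.76 and 7.0, whereas the melanoma means run from 6.83 to 8.11 and the fibroblast means do not overlap between genotypes.

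The levels of the 48 genes were compared with each other per kilobase of annotated exon. The median was 4.83 log2 CPM per kb, against 2.74 over the 12130 genes with an annotated length, and 42 of 48 lay above that median. *Ccnb2* was the highest at 7.36 (range over libraries 7.18 to 7.54), followed by *Cdc20* at 6.91, *Plk1* at 6.30 and *Ccnb1* at 6.23. The values of *Plk1* and *Ccnb1* overlapped between libraries. The lowest was *Knl1*, which encodes a scaffold of the outer kinetochore, at 1.59, with *Cenpf* at 1.65, and *Espl1*, which encodes separase, at 2.36. *Mki67* was at 4.13, rank 32 of the 48.

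Other cell cycle genes, from lists drawn by function, showed differences with similar quartiles, -0.116 and 0.0301 against -0.12 and 0.0116 for the mitotic genes. Their median was -0.0388, against -0.0745 for the mitotic genes. Of them 61.3% were lower, against 72.9% of the mitotic genes and 50.5% of all genes. Their range was wider, from -0.54 to 0.38. They also had a lower median level (5.67 against 7.12 log2 CPM) and a larger median SD within groups (0.176 against 0.135). Over 191 genes in 9 lists, 74 were higher and 117 lower, none had an adjusted p under 0.05, 3 had an unadjusted p under 0.05, against 3.26% of all genes, and the groups separated for 10, against 7.41%. Of 15 genes of mitotic cyclin-CDK control, 6 were higher and 9 lower (median -0.0499), from *Mastl*, which encodes the Greatwall kinase, at -0.39 to the phosphatase gene *Cdc25c* at 0.31. Of 41 other spindle and cytokinesis genes, 16 were higher and 25 lower (median -0.0388), and 2 had an unadjusted p under 0.05. *Kifc1*, a minus-end kinesin, was at 4.24, 3.72 and 4.32 in control and 3.62, 3.36 and 3.67 in *Nr3c1*-Foxp3Cre libraries, a difference of -0.54 (SE 0.22; limma, adjusted p = 1). *Ckap5*, which encodes a microtubule polymerase, was at 6.90, 6.91 and 6.85 against 7.15, 7.03 and 7.14, a difference of 0.22 (SE 0.0915; limma, adjusted p = 1). The groups did not overlap for either gene, and the directions were opposite.

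Of 31 centromere and outer kinetochore genes, 11 were higher and 20 lower (median -0.0596), between *Cenpk* at -0.40 and *Nsl1* at 0.19. Of 23 checkpoint and APC/C genes, 11 were higher and 12 lower (median -0.0274), between *Anapc10* at -0.19 and *Anapc1* at 0.18, both APC/C subunits. Cohesin and condensin partners had 8 higher and 5 lower of 13 (median 0.00899), between *Esco2*, a cohesin acetyltransferase, at -0.19 and *Pds5a*, a cohesin regulator, at 0.19. The 18 DREAM and E2F regulators, which include proteins of the complex that reads the CHR, had 8 higher and 10 lower (median -0.0314), between *Mybl2* at -0.17 and *Lin9* at 0.38. None of the genes in these 4 lists had an unadjusted p under 0.05.

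Genes that act outside mitosis were listed beside them. Of 7 G1 cyclins and their kinases, 3 were higher and 4 lower (median -0.00532), between *Ccnd1* at -0.18 and *Ccnd2* at 0.0659. Of 11 CDK inhibitors and antiproliferative genes 10 had a value, with none for *Cdkn2a*, and 3 were higher and 7 lower (median -0.0198), between *Cdkn2c* at -0.15 and *Btg2* at 0.15. Of 33 S phase genes, 8 were higher and 25 lower (median -0.0948). The groups separated for 2 of the 33, against 7.41% of all genes, and 1 had an unadjusted p under 0.05, against 3.26%. The gene with that p was *Mcm6*, a subunit of the replicative helicase. It was at 9.36, 9.15 and 9.48 in control and 8.88, 8.85 and 8.94 in *Nr3c1*-Foxp3Cre libraries. The groups did not overlap, and the difference of -0.44 (SE 0.11) had an adjusted p of 0.684 in limma. *Mcm2*, a subunit of the same helicase, was the highest of the list at 0.0585.

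**Figure D5:**
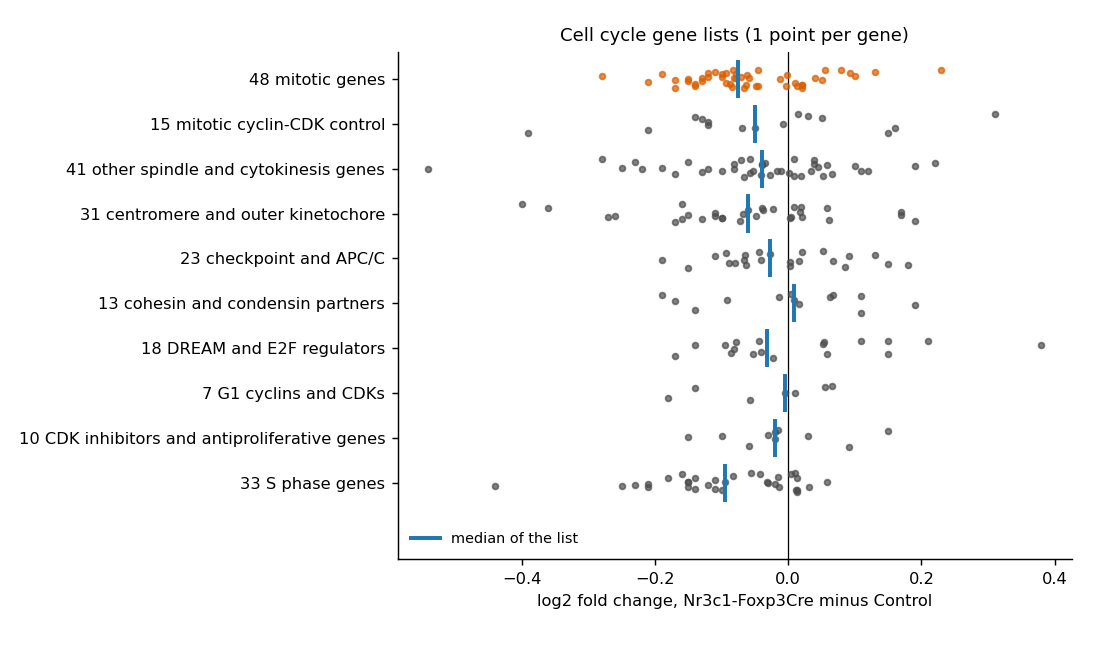
Difference between genotypes (log2 fold change) of each gene in the mitotic set and in 9 other cell cycle lists, with 1 point per gene and a blue line at each median. The medians run from -0.0948 for S phase genes to 0.00899 for cohesin and condensin partners, and the median of the mitotic genes is -0.0745.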

How the data were processed

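RNA was measured in 6 Treg libraries, 3 per genotype, grouped by the sample labels. The authors deposited log2 CPM: reads were trimmed (Cutadapt), mapped to mm10 (STAR) and turned into gene-level estimates (RSEM, GENCODE M21), genes of low count were dropped, and the libraries were quantile normalized. Depth and voom weights cannot be had from such values, so limma 3.58.1 (R 4.3.3) was run on all 12153 genes (lmFit, eBayes with a mean-variance trend, genotype only) with Benjamini-Hochberg adjustment over all genes at 0.05. Intervals of 95% use the moderated SE with 9.3 degrees of freedom. With 3 libraries against 3, the smallest two-sided exact permutation p is 0.1, so no such test was run. The fit was tested on simulated data whose changes were far larger than any among the mitotic genes. That test does not cover differences of the size seen here. The 48 genes and all lists were chosen with earlier results of these data known. Named genes were 12 chosen by role, the 5 highest and 5 lowest by log2 fold change, any with an unadjusted p under 0.05 or groups without overlap, and, per list, such genes by p and the highest and lowest. Exon lengths are the union of GENCODE M21 exons, which overstates the length of genes with long rare isoforms. Promoter windows came from RefSeq. The 16 alternatives were eBayes without the trend or in robust form, sample quality weights, vooma weights, a minimum mean of 1 log2 CPM, log2(CPM + 1), median centering, cyclic loess, the melanoma covariate, the replicate block and leaving out each library. A further list of cell type markers is not reported here.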

Additional observations from a re-analysis of the deposited data

How the results depend on the processing

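No mitotic gene had an adjusted p under 0.05 under any of the 16 alternatives. Sample quality weights, which gave control library 3 a weight of 7.47 and the others 0.52 to 0.86, left 2 genes higher in *Nr3c1*-Foxp3Cre Tregs (47.5% of all genes) with a median of -0.161, and gave 8 an unadjusted p under 0.05 (11.3% of all genes), all lower: *Ccna2*, *Ube2c*, *Ncapd2*, *Cenpa*, *Bub1*, *Racgap1*, *Ttk* and *Kif23* (limma, adjusted p from 0.329 to 0.435). These weights reversed *Mki67* to 0.0415, *Bub1b* to -0.0145, *Sgo1* to -0.00954, *Kif11* to -0.00566, *Kif2c* to -0.12 and *Hmmr* to -0.0438. Leaving out 1 library moved the number higher between 9 and 21 (21 without control library 3), the number with an unadjusted p under 0.05 between 0 and 1, and the median between -0.131 and -0.0161: -0.0691, -0.131 and -0.0161 without control libraries 1, 2 and 3, and -0.0461, -0.0359 and -0.128 without *Nr3c1*-Foxp3Cre libraries 1, 2 and 3. The number of genes without overlap ranged from 0 to 12: 3, 12 and 8 without control libraries 1, 2 and 3 (15.8%, 20.0% and 13.2% of all genes), and 4, 0 and 9 without *Nr3c1*-Foxp3Cre libraries 1, 2 and 3 (16.3%, 15.6% and 17.9%). Over these, *Ccnb2* ran from -0.17 to 0.00284, *Mki67* from -0.163 to 0.0593 and *Kif2c* from -0.00942 to 0.246. The cause of these moves was not tested. For the 21 named mitotic genes, 326 of the results under alternatives kept their direction and side of the threshold and 10 reversed. All 10 reversals came from the sample quality weights or from leaving out a library. Fits without the trend, in robust form, with vooma weights, with the minimum mean or with the replicate block left every log2 fold change as it was. They could not reverse a direction, so the tally is no measure of stability. Libraries with the same replicate number had deviations correlated at -0.117, -0.329 and -0.0246 across genes. For libraries with unlike numbers the correlations ran from -0.269 to 0.365. With 3 libraries per group, these values cannot decide whether the numbers pair libraries. With the replicate block, 0 mitotic genes had an unadjusted p under 0.05 (2.26% of all genes). In this balanced design the block leaves every log2 fold change as it was, so 13 were again higher and the median was again -0.0745.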
